A study of Mus musculus with 16 samples.

Results

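The genes described here carry the Nduf name, which marks the nuclear genes of respiratory complex I and of the factors that assemble it. They were taken as every probe set whose platform gene symbol starts with Nduf, 46 of the 19505 genes named on the array, each with a single probe set. The 46 comprise 6 core subunits encoded in the nucleus, 30 accessory subunits, 8 assembly factors (Ndufaf genes), and the related genes Ndufa4 and Ndufa4l2. Ndufb1 was not analysed here, nor were the core subunits encoded by mitochondrial DNA.

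The cells were BU.MPT, a mouse proximal tubular line grown at 39 °C without interferon gamma, measured in 4 groups of 4 arrays. H/R+B12 cells spent 3 h at about 1% oxygen in medium without glucose or serum and 1 h back at normal oxygen with both, with 0.3 µM cyanocobalamin (vitamin B12). H/R cells went through the same hypoxia and reperfusion without B12. Control+B12 cells stayed in normal culture (21% oxygen, 10% serum, 4.5 g/L glucose) with 0.3 µM B12, and control cells stayed there without it. The labels do not say whether replicates were separate cultures, so p-values cover only the spread between these samples. Oxygen, glucose and serum changed together in H/R and cannot be told apart.

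Complex I takes electrons from NADH in the mitochondrial matrix, passes them along a chain of iron-sulfur clusters to ubiquinone, and pumps protons across the inner membrane. The core subunits carry the chemistry, the accessory subunits form a shell around them in a matrix arm and a membrane arm, and assembly factors bind intermediates and leave before the enzyme is finished. The proximal tubule relies on mitochondrial respiration for the energy of reabsorption. The roles given below come mainly from human and bovine work.

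Values are the authors' log2 signals, so a difference of 1 is a 2-fold change in signal. A change is the log2 signal in H/R cells minus that in control cells, or the same between the groups with B12, given ± its SE. The median signal of an array was 5.21 to 5.37 for the 22206 probe sets tested, and that of the negative control features 5.72 to 6.23. Arrays of the same group correlated at 0.990 to 0.994. Of 15 proximal tubule markers measured, 5 (Aqp1, Pax8, Cdh16, Mme and Slc4a4) were above the negative control median on all 16 arrays and 10, among them Lrp2, Cubn, Slc34a1 and Hnf4a, were below it on all 16. The arrays thus showed part of this marker list, and whether the 5 genes are particular to the proximal tubule was not tested. Of the 15, 1 rose and 2 fell in H/R against control: the log2 change of Slc4a4 was 2.22 ± 0.21, that of Aqp1 -0.79 ± 0.16, that of Mme -0.52 ± 0.11 and, outside that list, that of the epithelial keratin Krt18 0.82 ± 0.22 (adjusted p at most 0.0166 by limma), and their part in the results below was not tested. Markers of other cells were below it on all 16 arrays in 5 of 5 distal nephron and collecting duct genes, 2 of 2 leukocyte genes, 2 of 3 endothelial genes and 2 of 3 fibroblast genes. The other endothelial gene, Cdh5, was below it on 15 arrays, and the other fibroblast gene, Col1a1, on 7. The only podocyte marker measured, Nphs1, was below it on 3 of 16 arrays. Of 4 epithelial genes, Krt8 and Krt18 were above it on all 16 arrays, Cdh1 was below it on 7 and Epcam on all 16. Krt18 alone of them was called in H/R against control. The leukocyte gene Ptprc, below the negative control median on all 16 arrays, had a change of 0.93 ± 0.29 with B12 in both arms (adjusted p = 0.0365 by limma).

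More than 1 in 2 of the complex I genes were lower after H/R. Of the 46 Nduf genes 27 fell and 0 rose in H/R against control (limma, adjusted p under 0.05), where 9.54% of all 22206 probe sets fell and 8.11% rose. Ndufb7, a membrane arm subunit on the intermembrane space side, fell the most, 3.74-fold. The median log2 change was -0.58 over the 46 genes and -0.02 over all probe sets. In 29 of the 46 genes every H/R value was lower than every control value, as in 11% of all probe sets. The Nduf genes were mostly bright, and among the 6936 probe sets at least as bright as their lowest quartile 19.7% fell and 19.1% rose.

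The balance of all probe sets depended on the scaling: 1801 rose and 2118 fell as deposited, and 2133 rose and 1646 fell once arrays were centred on their medians. With B12 in both arms 2007 rose and 2135 fell as deposited, and 2417 rose and 1605 fell with centred arrays. With centred arrays 22 Nduf genes fell and 0 rose in each comparison. In bulk RNA, fewer cells of a kind and less RNA per cell cannot be told apart.

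**Figure D1:**
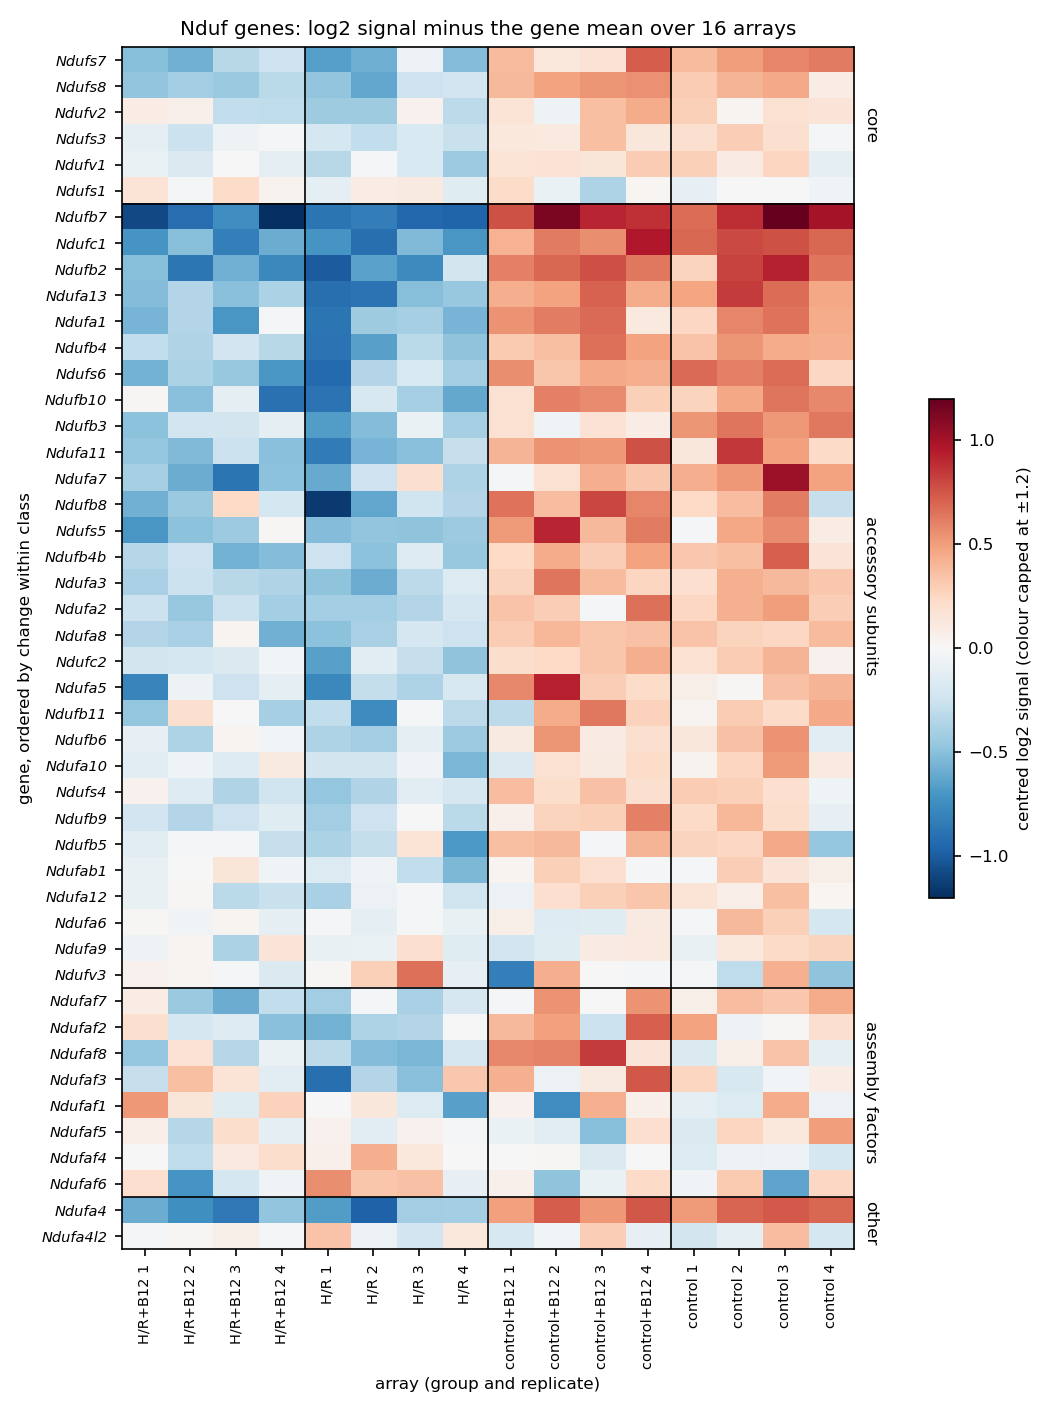
Log2 signal of each of the 46 Nduf genes (rows, grouped by class) on each of the 16 arrays (columns, 4 per group), minus that gene's mean over 16 arrays. Blue is below and red above the gene's mean; most subunit rows are blue in the 8 H/R+B12 and H/R arrays and red in the 8 control+B12 and control arrays, while the rows of Ndufs1, Ndufa6, Ndufa9 and most assembly factors are pale or mixed.

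By class, most calls were among accessory subunits. Among accessory subunits 22 of 30 fell, with a median log2 change of -0.72. Among the core subunits measured 3 of 6 fell, with a median of -0.42. Among the Ndufaf assembly factors 1 of 8 fell, with a median of -0.29. That share, 12.5%, is near the 9.54% of all probe sets and the 19.7% of bright ones that fell. No test of the difference between classes was made.

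Averaged per array after centring each gene, the accessory subunits stood at -0.39 ± 0.14 in H/R cells, against 0.35 ± 0.14 in control cells (SD, n = 4 each). The core subunits stood at -0.27 ± 0.13 in H/R cells, against 0.21 ± 0.07 in control cells. The assembly factors stood at -0.13 ± 0.06 in H/R cells, against 0.07 ± 0.05 in control cells. In these 3 class means, from signals as deposited, the 4 H/R arrays did not overlap the 4 control arrays. For the assembly factors the nearest arrays were H/R 2 at -0.06 and control 1 at 0.02. The medians of those arrays differed as well, 5.24 and 5.33, so that separation depends on the scaling.

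**Figure D2:**
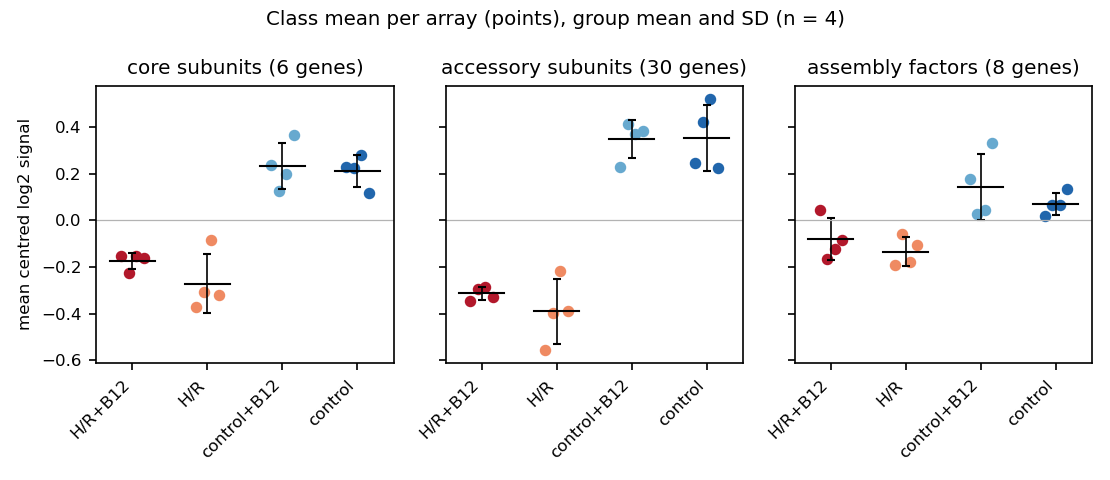
Mean centred log2 signal of each class on each array (points), with the group mean (line) and SD (bar, n = 4), for 6 core subunits, 30 accessory subunits and 8 assembly factors. The gap between H/R and control arrays is widest for accessory subunits (-0.39 against 0.35) and narrowest for assembly factors (-0.13 against 0.07).

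Promoters were read for the genes on which the results turn: Ndufb7 and Ndufc1, which fell the most of the complex I subunits in H/R against control, Ndufs7, the core subunit measured that fell the most in that comparison, and Ndufaf4, an assembly factor that did not pass the test. The windows are 250 bases before to 50 after a RefSeq transcript start (build GRCm38.p6), written 5′ to 3′ on the gene's strand. That start is the outer end of the RefSeq gene for Ndufb7, Ndufc1 and Ndufaf4, while for Ndufs7 it lies 344 bases inside the gene. Capitals mark letters matching an NRF1, ETS (CCGGAAG), hypoxia response (ACGTG), YY1 or estrogen-related receptor (TCAAGGTCA) motif, searched on both strands. The letters of the NRF1 and YY1 motifs are those in capitals for Ndufaf4 and Ndufs7.
Ndufb7, chr8:83566508-83566807, plus strand: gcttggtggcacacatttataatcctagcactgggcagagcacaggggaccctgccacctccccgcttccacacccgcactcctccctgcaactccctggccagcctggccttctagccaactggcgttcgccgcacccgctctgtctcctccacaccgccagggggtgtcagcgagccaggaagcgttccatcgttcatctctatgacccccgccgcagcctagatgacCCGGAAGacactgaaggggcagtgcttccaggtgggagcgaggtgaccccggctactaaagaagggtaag
Ndufc1, chr3:51408906-51409205, minus strand: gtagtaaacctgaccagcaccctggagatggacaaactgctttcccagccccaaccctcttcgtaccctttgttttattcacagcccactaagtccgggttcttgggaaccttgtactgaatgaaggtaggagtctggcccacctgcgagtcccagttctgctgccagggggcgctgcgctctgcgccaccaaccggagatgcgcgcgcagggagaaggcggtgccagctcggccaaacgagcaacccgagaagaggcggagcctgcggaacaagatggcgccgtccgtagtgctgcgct
Ndufs7, chr10:80249199-80249498, plus strand: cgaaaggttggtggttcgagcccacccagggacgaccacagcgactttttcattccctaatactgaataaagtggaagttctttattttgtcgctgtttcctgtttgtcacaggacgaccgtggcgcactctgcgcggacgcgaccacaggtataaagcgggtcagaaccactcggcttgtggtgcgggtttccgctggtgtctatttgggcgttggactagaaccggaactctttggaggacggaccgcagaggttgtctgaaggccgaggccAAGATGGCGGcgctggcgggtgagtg
Ndufaf4, chr4:24897833-24898132, plus strand: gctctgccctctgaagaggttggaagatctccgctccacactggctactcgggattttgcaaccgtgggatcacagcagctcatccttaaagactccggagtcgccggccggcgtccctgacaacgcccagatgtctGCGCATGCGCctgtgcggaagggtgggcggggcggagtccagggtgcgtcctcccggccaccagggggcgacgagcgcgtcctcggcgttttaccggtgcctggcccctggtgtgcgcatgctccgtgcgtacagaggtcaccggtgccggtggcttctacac

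Ndufb7 held an ETS match, Ndufs7 a YY1 match near the transcript start of its window, Ndufaf4 an NRF1 match, and Ndufc1 none of the 5. Of the 46 genes 41 had a promoter in the RefSeq table, with 43 windows. In 11 of these windows the transcript start lies inside the RefSeq gene, by up to 538 bases. A gene was counted if any of its windows held the letters, while the shares of all are per promoter. The YY1 letters were in 5 of these 41 (12.2%; Ndufs6, Ndufs7, Ndufs4, Ndufaf8 and Ndufa9) and in 0.852% of all 32851 promoters. The NRF1 letters were in 3 (7.32%; Ndufa11, Ndufaf5 and Ndufaf4) and in 0.971% of all. The ETS letters were in 6 (14.6%, against 8.86% of all), the hypoxia response letters in 7 (17.1%, against 19.6%), and the estrogen-related receptor letters in 0 (0.423% of all). Of the 26 matched genes that fell in H/R against control, 4 held the ETS letters, 4 the hypoxia response letters, 3 the YY1 letters and 1 the NRF1 letters. Of the 15 matched genes that did not pass, 2 held the ETS letters, 3 the hypoxia response letters, 2 the YY1 letters and 2 the NRF1 letters. The Nduf promoters had a median GC content of 59.3%, against 52.7% over all promoters, and the motif letters are rich in G and C in part.

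Of the core subunits, Ndufs7 and Ndufs8 fell in both H/R comparisons. They hold the iron-sulfur clusters nearest to the ubiquinone site. Ndufs7 had log2 signals of 11.10, 11.18, 11.70 and 11.24 in H/R cells, against 12.15, 12.27, 12.35 and 12.39 in control cells. No H/R array reached the lowest control array, a log2 change of -0.98 ± 0.16 (SE, adjusted p = 0.000425 by limma). The values with B12 were 11.26, 11.19, 11.43 and 11.52 in H/R+B12 cells, against 12.14, 11.89, 11.94 and 12.50 in control+B12 cells. That is a change of -0.77 ± 0.16 (adjusted p = 0.00304 by limma).

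Ndufs8 had log2 signals of 13.73, 13.57, 13.95 and 13.97 in H/R cells, against 14.51, 14.61, 14.65 and 14.29 in control cells. With B12 the values were 13.72, 13.79, 13.75 and 13.87 in H/R+B12 cells, against 14.59, 14.68, 14.73 and 14.75 in control+B12 cells. In each comparison the H/R values were all lower than those of the matched control. Ndufs8 fell by 0.71 ± 0.13 on the log2 scale without B12 and by 0.90 ± 0.13 with it (adjusted p = 0.000862 and 0.000104 by limma).

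Ndufs1, the large subunit that carries several of the clusters of the electron path, did not pass in either comparison. Ndufs1 had log2 signals of 12.58, 12.78, 12.81 and 12.55 in H/R cells, against 12.60, 12.70, 12.70 and 12.66 in control cells. The values with B12 were 12.86, 12.69, 12.92 and 12.74 in H/R+B12 cells, against 12.92, 12.62, 12.33 and 12.72 in control+B12 cells. The groups overlapped in both comparisons. The log2 change was 0.02 ± 0.14 without B12, with a 95% interval of -0.27 to 0.30, and 0.16 ± 0.14 with B12, with an interval of -0.13 to 0.44. These intervals leave out a fall as large as that of Ndufs7 or Ndufs8.

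Ndufv1 binds NADH and the flavin that takes up its electrons, Ndufv2 is its iron-sulfur partner, and Ndufs3 is part of the module that binds ubiquinone. Ndufs3 had 12.87, 12.79, 12.89 and 12.81 in H/R cells, against 13.27, 13.38, 13.27 and 13.07 in control cells, and fell by 0.40 ± 0.12 on the log2 scale (adjusted p = 0.0244 by limma). Its highest H/R value was below its lowest control value. With B12 it was at -0.30 ± 0.12 (adjusted p = 0.097 by limma). Ndufv1 was at -0.37 ± 0.13 without B12 and -0.29 ± 0.13 with it (adjusted p = 0.0598 and 0.154 by limma). Ndufv2 was at -0.44 ± 0.16 and -0.34 ± 0.16 (adjusted p = 0.066 and 0.162 by limma). Ndufv1 and Ndufv2 did not pass in either comparison, and Ndufs3 did not pass with B12.

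Falls of 2-fold or more in H/R against control were found in 10 Nduf genes, 8 of them accessory subunits of the membrane arm. All 19 membrane arm accessory subunits measured had a negative change, from -1.90 to -0.42, and 16 of them fell (median -0.83). Of 9 matrix arm accessory subunits 5 fell, with changes from -1.02 to 0.31 (median -0.48). With B12 in both arms 14 of the 19 and 5 of the 9 fell, with medians of -0.76 and -0.46. The difference between arms was not tested.

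Ndufb7 had log2 signals of 9.05, 9.11, 8.99 and 8.97 in H/R cells, against 10.60, 10.82, 11.38 and 10.93 in control cells. With B12 the values were 8.85, 9.02, 9.18 and 8.58 in H/R+B12 cells, against 10.70, 11.06, 10.84 and 10.81 in control+B12 cells. No H/R array came within 1 log2 unit of a control array in either comparison. Ndufb7 fell by 1.90 ± 0.17 without B12, to 26.7% of the control signal, and by 1.94 ± 0.17 with B12, to 26% of the control+B12 signal (adjusted p = 1.15e-06 and 7.71e-07 by limma).

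Ndufc1 is a small membrane subunit. Ndufc1 had log2 signals of 13.50, 13.30, 13.68 and 13.51 in H/R cells, against 14.90, 15.004, 14.97 and 14.89 in control cells. The values with B12 were 13.50, 13.70, 13.38 and 13.61 in H/R+B12 cells, against 14.62, 14.83, 14.76 and 15.16 in control+B12 cells. The groups did not overlap, and Ndufc1 fell 2.73-fold without B12 (-1.45 ± 0.14) and 2.46-fold with it (-1.30 ± 0.14). Ndufb2, another small membrane arm subunit, had 8.27, 8.62, 8.499 and 9.05 in H/R cells, against 9.53, 10.08, 10.19 and 9.91 in control cells. Its highest H/R array stayed below its lowest control array, and the log2 change was -1.32 ± 0.17 (with B12 -1.36 ± 0.17). The adjusted p-values of Ndufc1 and Ndufb2 in the 2 comparisons ran from 2.17e-06 to 5.41e-05 by limma.

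Ndufa13, also known as GRIM-19 for its link to interferon and retinoid induced cell death, sits where the arms meet. Ndufa13 had log2 signals of 12.25, 12.26, 12.64 and 12.70 in H/R cells, against 13.62, 13.99, 13.82 and 13.62 in control cells. With B12 the values were 12.64, 12.80, 12.65 and 12.77 in H/R+B12 cells, against 13.59, 13.63, 13.86 and 13.60 in control+B12 cells. The groups did not overlap in either comparison. It fell by 1.30 ± 0.14 without B12 and by 0.96 ± 0.14 with B12 (adjusted p = 9.95e-06 and 0.000159 by limma). Ndufa1, a small membrane subunit encoded on the X chromosome, fell by 1.05 ± 0.18 and 0.90 ± 0.18 in the same order of comparisons.

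Ndufs6, the zinc-binding subunit that joins late in the matrix arm, had 10.71, 11.28, 11.45 and 11.23 in H/R cells, against 12.32, 12.24, 12.31 and 11.88 in control cells. The H/R arrays were all lower, and Ndufs6 fell by 1.02 ± 0.16 (with B12 by 0.97 ± 0.16). Ndufb10 and Ndufs5, which share with Ndufb7 and Ndufa8 the disulfide-linked fold typical of intermembrane space proteins, were at -1.01 ± 0.20 and -0.75 ± 0.17 without B12. With B12 they were at -0.79 ± 0.20 and -1.01 ± 0.17, and Ndufa8 was at -0.64 ± 0.13 without and -0.67 ± 0.13 with B12. All 3 passed the test in both comparisons. Ndufa11, a membrane arm subunit beside the site where other respiratory complexes dock, fell by 0.97 ± 0.17 without and by 0.997 ± 0.17 with B12.

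Ndufb4, a membrane arm subunit, fell by 1.02 ± 0.14 without and by 0.76 ± 0.14 with B12. Ndufb4b, a locus of 471 bases on chromosome 19 named after Ndufb4, fell by 0.73 ± 0.14 and 0.78 ± 0.14. The pair may share sequence on the array, so their separate values are uncertain, and both are counted among the 30 accessory subunits.

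**Figure D3:**
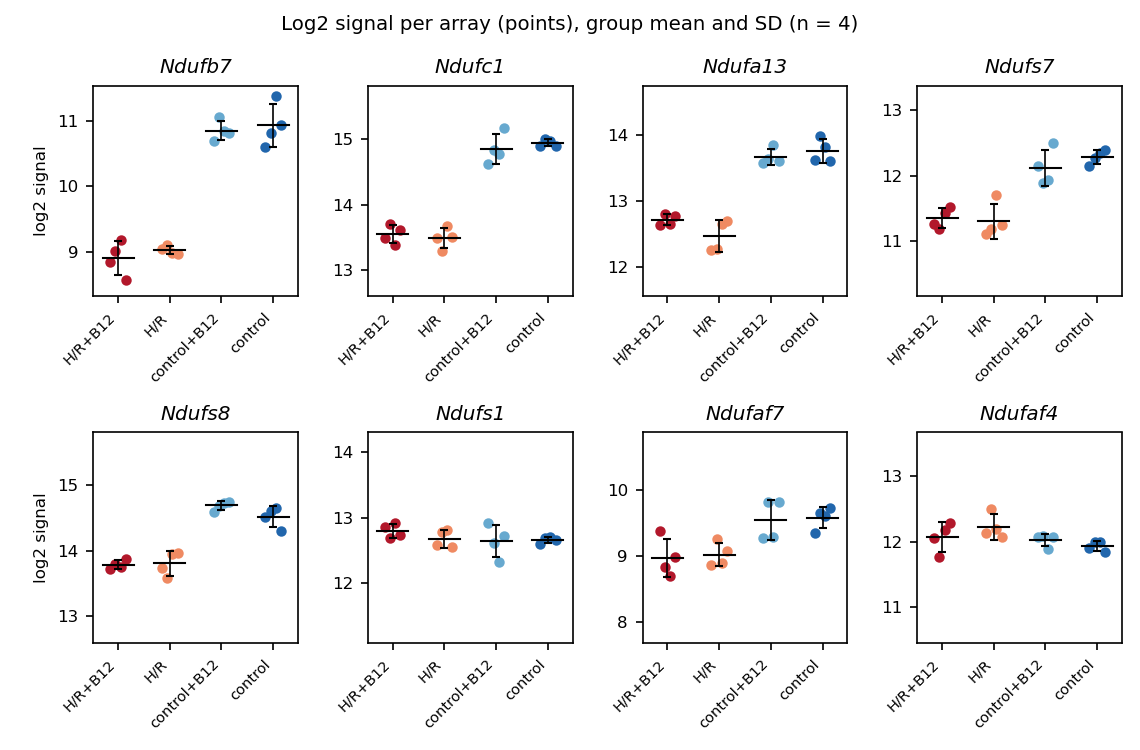
Log2 signal on each array (points) with the group mean and SD (n = 4) for 8 Nduf genes, each panel spanning the same range of log2 units. The H/R+B12 and H/R points lie below the control+B12 and control points for Ndufb7, Ndufc1, Ndufa13, Ndufs7 and Ndufs8, and the groups overlap for Ndufs1.

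Of the other accessory subunits, Ndufa7, Ndufb8, Ndufa3, Ndufa2, Ndufc2, Ndufa5, Ndufb6, Ndufa10, Ndufs4 and Ndufb3 also fell in H/R against control, with log2 changes of -0.88 to -0.48 besides Ndufb3 (-1.002 ± 0.14). The accessory subunits that did not pass in H/R against control were Ndufb11, Ndufb9, Ndufb5, Ndufab1, Ndufa12, Ndufa6, Ndufa9 and Ndufv3. The first 5 had log2 changes of -0.60 to -0.34. Ndufab1, the acyl carrier protein of mitochondrial fatty acid synthesis and a structural subunit in both arms, was at -0.38 ± 0.14 without B12 and -0.12 ± 0.14 with B12. Ndufa9, a matrix arm subunit with a nucleotide-binding fold, was at -0.17 ± 0.15 and -0.02 ± 0.15. Ndufa6 was at -0.17 ± 0.14 and 0.001 ± 0.14, and Ndufv3, at the tip of the matrix arm, was at 0.31 ± 0.25 and 0.08 ± 0.25. Ndufa9 and Ndufa6, with Ndufs1, were among the subunits with 95% intervals on both sides of 0 in both comparisons.

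Of the 8 assembly factors 1 passed without B12 and 2 with B12. Those shares, 12.5% and 25%, stand beside 19.7% and 19.2% of bright probe sets that fell. Ndufaf7, an arginine methyltransferase of the mitochondrial matrix, had 8.87, 9.25, 8.89 and 9.08 in H/R cells, against 9.35, 9.65, 9.61 and 9.73 in control cells. The groups did not overlap and it fell by 0.56 ± 0.18 (adjusted p = 0.0395 by limma). With B12 it had 9.37, 8.84, 8.69 and 8.98 in H/R+B12 cells, against 9.27, 9.82, 9.29 and 9.82 in control+B12 cells, where 1 H/R+B12 array lay above the lowest control+B12 array. It fell by 0.58 ± 0.18 there (adjusted p = 0.0334 by limma).

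Ndufaf8, a small partner of Ndufaf5, passed in the comparison with B12. It had 6.03, 6.66, 6.14 and 6.41 in H/R+B12 cells, against 7.07, 7.08, 7.33 and 6.65 in control+B12 cells, and fell by 0.72 ± 0.18 (adjusted p = 0.00891 by limma). Those groups overlapped by 1 array. In H/R cells it had 6.18, 5.97, 5.95 and 6.29, against 6.32, 6.56, 6.83 and 6.38 in control cells. All 4 H/R values lay below all 4 control values, as in 11% of all probe sets. The change without B12 was -0.43 ± 0.18 (adjusted p = 0.123 by limma). On 4 of 16 arrays Ndufaf8 lay below the negative control median, so the size of its change is uncertain.

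Ndufaf3 and Ndufaf4 act together early, on the module that binds ubiquinone. Ndufaf4 had 12.13, 12.50, 12.19 and 12.07 in H/R cells, against 11.90, 11.995, 12.002 and 11.85 in control cells. All 4 H/R arrays lay above all 4 control arrays, as in 9.88% of all probe sets, and Ndufaf4 was the only Nduf gene of the 46 for which this held. Its log2 change of 0.28 ± 0.14 did not pass (adjusted p = 0.199 by limma), and with B12 it was at 0.05 ± 0.14. Ndufaf3 was at -0.39 ± 0.24 without and -0.27 ± 0.24 with B12.

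The remaining assembly factors did not pass in either comparison. Ndufaf1, of the complex that builds the membrane arm, was at -0.19 ± 0.24 without and 0.25 ± 0.24 with B12. Ndufaf2, a relative of the subunit Ndufa12 that binds late intermediates, was at -0.48 ± 0.21 and -0.50 ± 0.21. Ndufaf5, which hydroxylates Ndufs7, was at -0.19 ± 0.18 and 0.09 ± 0.18, and Ndufaf6 was at 0.32 ± 0.24 and -0.12 ± 0.24. The SEs of the 8 assembly factors had a median of 0.20, against 0.15 for the accessory subunits.

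Ndufa4 carries a complex I name but is now placed in complex IV, cytochrome c oxidase. Ndufa4 had log2 signals of 14.68, 14.38, 14.93 and 14.94 in H/R cells, against 15.86, 16.05, 16.08 and 16.04 in control cells. The values with B12 were 14.75, 14.61, 14.49 and 14.87 in H/R+B12 cells, against 15.84, 16.07, 15.87 and 16.09 in control+B12 cells. The groups were apart in both comparisons, with falls of 1.27 ± 0.15 and 1.29 ± 0.15 on the log2 scale (adjusted p = 1.45e-05 and 1.38e-05 by limma). Ndufa4l2, its paralog and a known target of the hypoxia-inducible factor in other cells, lay between 2.50 and 3.10 on the 16 arrays. All 16 values were below the negative control medians. Its changes were 0.09 ± 0.16 and 0.02 ± 0.16, so a response of Ndufa4l2 was not measurable here.

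With B12 in both arms, 25 of the 46 genes fell and 0 rose in H/R+B12 against control+B12 (limma), where 9.61% of all probe sets fell and 9.04% rose. The median log2 change was -0.53, against -0.04 over all probe sets. By class, 20 of 30 accessory subunits, 2 of 6 core subunits and 2 of 8 assembly factors fell, and Ndufa4 fell too. Every H/R+B12 value was lower than every control+B12 value in 27 genes, as in 11.2% of all probe sets, and every one was higher in 0 genes, against 10.3% of all. Among the bright probe sets 19.2% fell and 20.5% rose.

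The comparisons with and without B12 share no arrays. Across them 23 genes fell in both, 4 only without B12 (Ndufb3, Ndufb6, Ndufa10 and Ndufs3) and 2 only with B12 (Ndufb9 and Ndufaf8) by the threshold, and 17 fell in neither. Over the 46 genes the changes correlated at a Pearson r of 0.904 and a Spearman rho of 0.907, as a description across genes, which are not independent replicates. In 27 of 46 genes the change was more negative without B12.

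**Figure D4:**
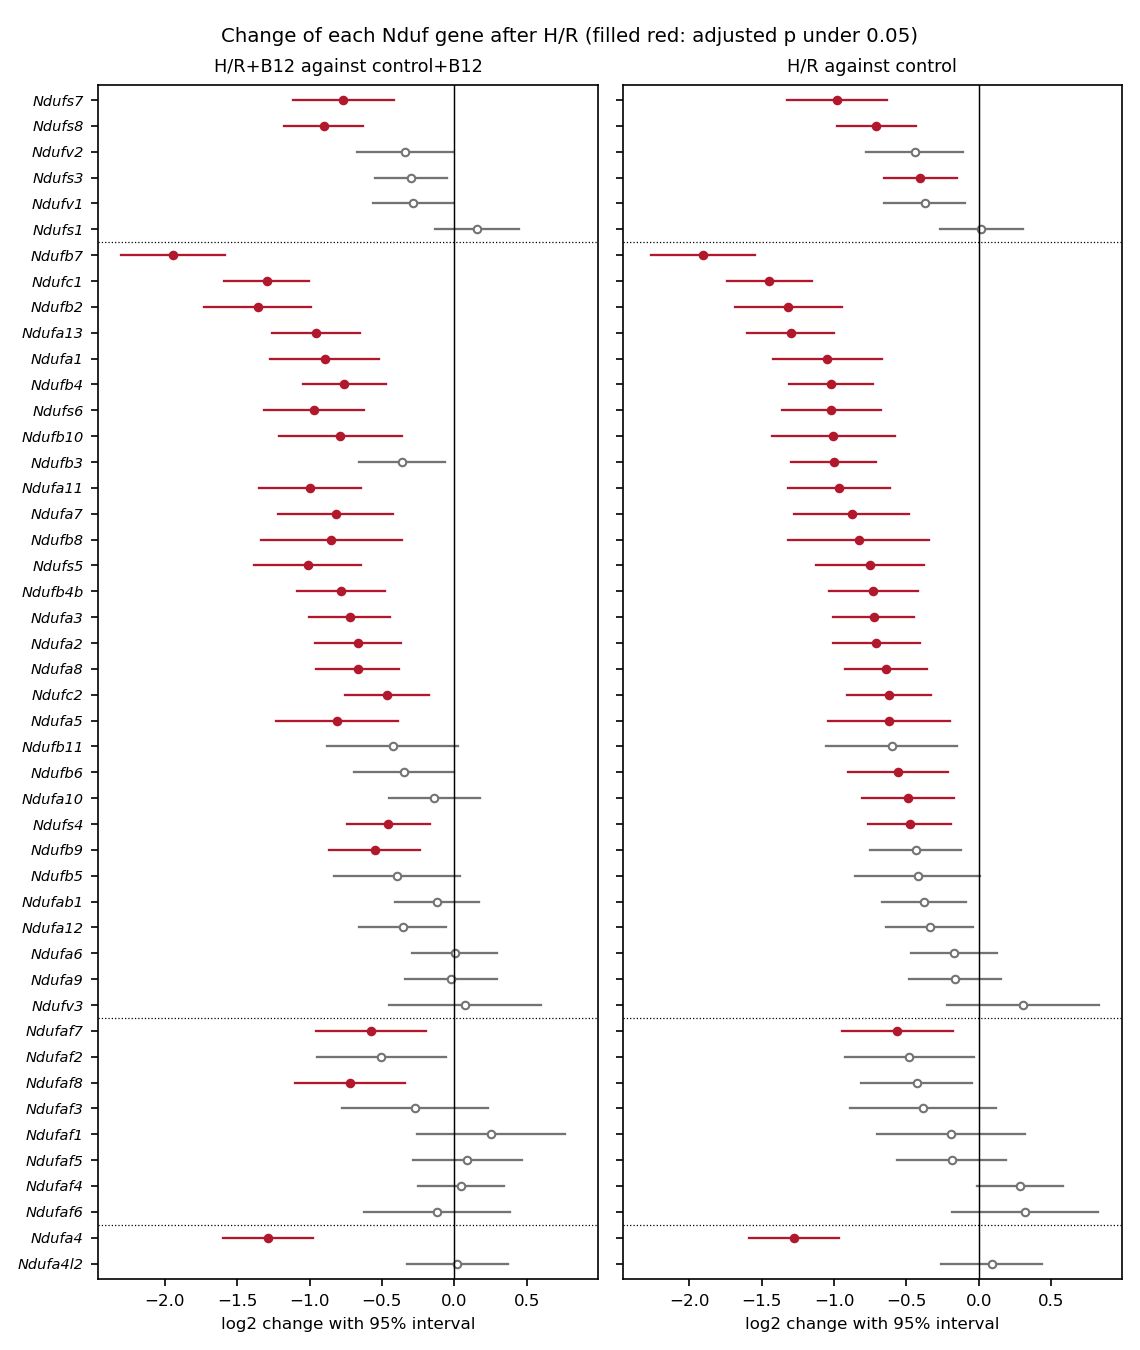
Log2 change of each of the 46 Nduf genes with its 95% interval, with B12 in both arms (left) and without B12 (right), grouped as core subunits, accessory subunits, assembly factors and other genes from top to bottom. Filled red points passed an adjusted p of 0.05 (25 genes on the left, 27 on the right), all of them below 0.

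Direct comparisons of B12 gave no call. In H/R+B12 against H/R 0 of 46 genes passed by limma, and in control+B12 against control 0 of 46, where 0% of all probe sets passed in either. No Nduf gene had separate groups in H/R+B12 against H/R, where 1.49% of all probe sets were lower and 1.38% higher on all arrays. At an unadjusted p under 0.05 the counts were 0 and 2 of the 46, beside 4.55% and 5.76% of all probe sets. The median changes were 0.09 in H/R+B12 against H/R and 0.01 in control+B12 against control. In H/R+B12 against H/R 31 of 46 changes were above 0, with values from -0.48 to 0.39.

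The class means showed overlap between B12 and no B12. The accessory subunits stood at -0.31 ± 0.03 in H/R+B12 cells, against -0.39 ± 0.14 in H/R cells (SD, n = 4 each). Their 4 H/R+B12 arrays, -0.35 to -0.28, lay within the H/R range of -0.56 to -0.22. The core subunits stood at -0.17 ± 0.04 in H/R+B12 cells, against -0.27 ± 0.13 in H/R cells. In normal culture the accessory subunits stood at 0.35 ± 0.08 in control+B12 cells, against 0.35 ± 0.14 in control cells.

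The 3 genes with the smallest p in H/R+B12 against H/R were Ndufb4 (0.28 ± 0.14), Ndufaf6 (-0.48 ± 0.24) and Ndufab1 (0.26 ± 0.14), each with an adjusted p of 1 by limma after rounding. Their unadjusted p-values were 0.0563, 0.0621 and 0.0735. The 95% intervals ran from -0.01 to 0.57 for Ndufb4, -0.98 to 0.03 for Ndufaf6 and -0.03 to 0.55 for Ndufab1, and each includes 0.

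In control+B12 against control the 3 smallest were Ndufb3, Ndufaf8 and Ndufa7. Ndufb3, a small membrane arm subunit, had 10.73, 10.51, 10.72 and 10.64 in control+B12 cells, against 11.08, 11.19, 11.08 and 11.19 in control cells. All 4 control+B12 arrays were lower, a change of -0.48 ± 0.14 (unadjusted p = 0.00318, adjusted p = 0.762 by limma). Ndufaf8 was at 0.51 ± 0.18 and Ndufa7 at -0.39 ± 0.19 (adjusted p = 0.82 and 0.861 by limma). For Ndufa7 the control+B12 values were also all lower than the control values, as in 1.51% of all probe sets (all higher in 1.36%).

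The test of whether H/R acted differently with B12, the interaction, passed for 0 of 46 genes by limma, and 1 of 46 had an unadjusted p under 0.05, beside 4.82% of all probe sets. That gene was Ndufb3. It had 10.06, 10.32, 10.33 and 10.44 in H/R+B12 cells and 9.88, 10.03, 10.47 and 10.15 in H/R cells. Against the control+B12 and control values above it was at -0.36 ± 0.14 with B12 and -1.002 ± 0.14 without B12. The interaction, the change with B12 minus the change without it, was 0.64 ± 0.20, with a 95% interval of 0.22 to 1.06 (unadjusted p = 0.00508, adjusted p = 0.972 by limma). The next smallest were Ndufa13 (0.34 ± 0.20) and Ndufa10 (0.35 ± 0.21), with adjusted p-values of 0.987 and 0.987 by limma.

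**Figure D5:**
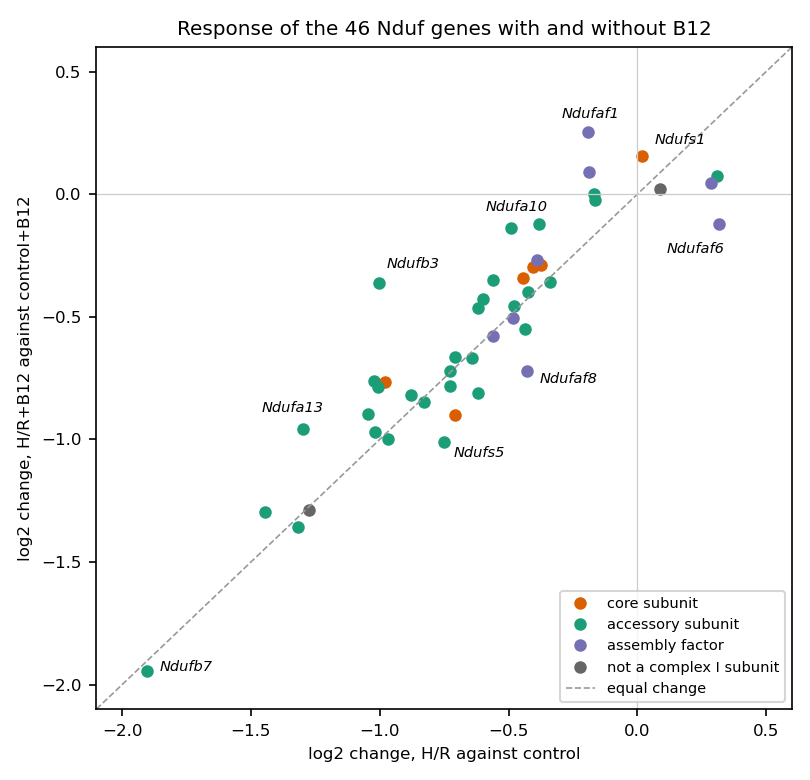
Log2 change of each of the 46 Nduf genes in H/R against control (horizontal) and in H/R+B12 against control+B12 (vertical), coloured by class, with a dashed line of equal change. The points follow the line (Pearson r 0.904), with Ndufb7 at the lower left and Ndufb3, with the smaller change on the vertical axis (-0.36), farther above the line than the other genes.

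Some calls depended on the setting. Apart from a 2-fold rule, which left 10 lower genes without B12 and 5 with B12, 25 other settings were tried. They included leaving out each array. Of the 27 genes called in H/R against control, 20 were called in each of the 25. The other 7 lost the call in settings that kept every array and in settings that left out 1. Centring the arrays ended the calls of Ndufa5, Ndufaf7, Ndufa10, Ndufs4 and Ndufs3 (adjusted p 0.0591 to 0.0845 by limma), and fitting only the groups compared ended those of Ndufb6, Ndufa10, Ndufs4 and Ndufs3 (0.0586 to 0.0814). The negative control covariate ended those of Ndufb8, Ndufa5, Ndufaf7, Ndufb6, Ndufa10 and Ndufs3 (0.0573 to 0.141), and quantile normalization that of Ndufaf7 (0.0697). The adjusted p of Ndufb8 (limma) missed the threshold without array 1 (0.068) of H/R or array 3 (0.065) of control, and that of Ndufa5 without array 3 (0.0502) of H/R+B12 or arrays 1 (0.134), 2 (0.0575) or 3 (0.0718) of H/R or arrays 1 (0.0517), 3 (0.101) or 4 (0.108) of control. Ndufaf7 lost the call without arrays 1 (0.104), 3 (0.101) or 4 (0.0643) of H/R or arrays 2 (0.0874), 3 (0.08) or 4 (0.0998) of control. Ndufb6 lost it without arrays 1 (0.0547), 2 (0.0614) or 4 (0.0628) of H/R or arrays 2 (0.0671) or 3 (0.0859) of control, and Ndufa10 without arrays 1 (0.0544), 2 (0.0553) or 4 (0.105) of H/R or arrays 2 (0.0658) or 3 (0.105) of control. Ndufs4, a matrix arm subunit whose loss causes a Leigh-like disease in mice, lost it without arrays 1 (0.0668) or 2 (0.054) of H/R or arrays 1 (0.054) or 2 (0.0567) of control, and Ndufs3 without arrays 2 (0.0622) or 4 (0.0551) of H/R or arrays 2 (0.0745) or 3 (0.0561) of control.

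In the comparison with B12 20 of the 25 called genes were called in each of the 25 settings. The call of Ndufb8 was lost without array 1 (0.0525) of H/R+B12 and that of Ndufb9 without array 4 (0.0544) of control+B12. Ndufc2 lost it without arrays 1 (0.0603), 2 (0.0596) or 3 (0.0535) of H/R+B12 or arrays 3 (0.0535) or 4 (0.0692) of control+B12, Ndufaf7 without arrays 2 (0.0871), 3 (0.107) or 4 (0.0622) of H/R+B12 or arrays 2 (0.102) or 4 (0.102) of control+B12, and Ndufs4 without arrays 3 (0.0823) or 4 (0.0612) of H/R+B12 or arrays 1 (0.0655) or 3 (0.061) of control+B12. With every array kept, centring ended the calls of Ndufc2, Ndufaf7 and Ndufs4 (adjusted p 0.0803 to 0.0846 by limma), and fitting only the groups compared those of Ndufaf7 and Ndufs4 (0.0957 and 0.0623). Genes that missed the threshold could also gain it. With every array kept, Ndufb11, Ndufv2, Ndufb9, Ndufab1, Ndufv1 and Ndufa12 passed limma in H/R against control with an intensity trend (0.00451 to 0.0292). The filter on dim probe sets gave the same genes except Ndufa12 (0.0331 to 0.0473), and quantile normalization the same except Ndufb11 (0.0231 to 0.0445). Ndufb9 also passed with array weights (0.043) or 1 probe set per gene (0.0495), and Ndufv1 with the negative control covariate (0.0473). In H/R against control Ndufv1 passed without array 2 (0.0365) of H/R or array 4 (0.0309) of control, Ndufv2 without array 3 (0.0277) of H/R, Ndufab1 without array 2 (0.0453) of H/R and Ndufb5 without array 4 (0.0321) of control. Ndufb9 passed without array 3 (0.0362) of H/R or arrays 1 (0.0499) or 4 (0.0423) of control+B12 or array 4 (0.0269) of control, and Ndufb11 without array 3 (0.048) of H/R or array 1 (0.0351) of control+B12. With B12, Ndufb11 passed without array 1 (0.0465) of control+B12 and Ndufaf2 without array 3 (0.0191) of control+B12. With B12 and every array kept, Ndufs3 (0.0359), Ndufv1 (0.0445) and Ndufa12 (0.012) passed limma with an intensity trend. Ndufs3 (0.0319) and Ndufa12 (0.0356) passed there with quantile normalization.

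Of 11 complex I assembly factors with other names, 2 fell in H/R against control (Aifm1, -0.52 ± 0.13, and Dmac1, -0.43 ± 0.12) and 0 rose, with a median of -0.30. That share, 18.2%, is near the 19.7% of bright probe sets that fell. With B12, 3 of 11 fell, Timmdc1 (-0.62 ± 0.15) beside Dmac1 and Aifm1, with a median of -0.28. The share with B12, 27.3%, stands beside 9.61% of all probe sets and 19.2% of bright ones that fell there. Aifm1 supports import of respiratory chain proteins, and Dmac1 and Timmdc1 act in membrane arm assembly. Nubpl, which helps load iron-sulfur clusters into complex I, was at -0.93 ± 0.38 in H/R against control (adjusted p = 0.109 by limma).

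Of 12 iron-sulfur cluster assembly genes 3 fell and 1 rose without B12, and 3 fell and 2 rose with B12. The share of these 12 that fell, 25%, stands beside 19.7% (without B12) and 19.2% (with B12) of bright probe sets, of which 19.1% and 20.5% rose. Hspa9, the mitochondrial chaperone that releases clusters from their scaffold, rose by 1.07 ± 0.15 without and 1.23 ± 0.15 with B12. Bola3 and Glrx5, which act in cluster transfer, were at -0.90 ± 0.16 and -0.86 ± 0.17 without B12 (adjusted p = 0.00059 and 0.002 by limma).

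Of 9 regulators of mitochondrial gene expression 3 rose and 0 fell in H/R against control, with a median of 0.31, where 8.11% of all probe sets and 19.1% of the bright ones rose. Nrf1, a factor that binds promoters of respiratory genes, rose by 0.68 ± 0.13, Yy1 by 0.82 ± 0.15 and the coactivator Pprc1 by 1.13 ± 0.33. With B12, 4 of 9 rose, Yy1 (0.81 ± 0.15) and Nrf1 (0.50 ± 0.13) among them, where 9.04% of all probe sets and 20.5% of the bright ones rose. The coactivator Ppargc1a fell with B12 by 0.60 ± 0.14 (adjusted p = 0.00467 by limma), and without B12 it was at -0.39 ± 0.14 (adjusted p = 0.0599).

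In H/R against control 25 of 36 complex I subunits were lower and 0 higher (median -0.67), beside 26 of 47 lower and 0 higher among the subunits of complexes II to V (median -0.50). With B12 the counts were 22 of 36 lower and 0 higher in complex I (median -0.67), beside 26 of 47 lower and 1 higher in complexes II to V (median -0.52). Over all probe sets 9.54% fell without B12 and 9.61% with B12, and of the bright ones 19.7% and 19.2% fell. By complex without B12, 2 of 4 genes fell in complex II and 5 of 9 in complex III. Complex IV had 8 of 17 lower and complex V 11 of 17. Examples are Sdhd (-0.54 ± 0.14), Uqcr10 (-0.89 ± 0.15), Cox6c (-0.88 ± 0.12) and Atp5d (-0.96 ± 0.13). Ndufa4, which fell in both comparisons, is counted neither among the 36 complex I subunits nor among the 17 complex IV genes. The gene counted as higher with B12 was Cox4i2, an isoform of a complex IV subunit, which was below the negative control median on all 16 arrays, so a response of it was not measurable. Of the 17 complex IV genes 6 were below that median on all 16 arrays, and 8 of the other 11 fell without B12. All 36 complex I subunits were above it on all 16 arrays, so the sets are not alike in this, and without those 6 genes 26 of 41 genes of complexes II to V fell in each comparison. No test of a difference between the complexes was made.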

How the data were processed

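The 46 genes, their classes and the other gene lists were chosen with earlier results of these data known. The deposited values are log2 signals per probe set, normalized by the authors with RMA (Affymetrix Expression Console) with the Transcriptome Analysis Console also listed, per the submitters' processing notes. Their versions were not stated. The table has 28846 features, of which 6640 control features were left out and 22206 were tested. Gene symbols came from the platform annotation: 19572 probe sets had 1 symbol, 0 had several and 2634 had none. No column of per-sample values was left unused, and no 2 arrays were identical.

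The limma model (version 3.58.1, R 4.3.3) held the 4 groups of 16 arrays and gave 5 comparisons. P-values were two-sided and adjusted by Benjamini and Hochberg over 22206 probe sets (threshold 0.05). Errors are SEs of the moderated fit and intervals are 95%. The fit was tested on simulated data. The number of arrays limits the precision.

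Genes named are the core subunits, the assembly factors, Ndufa4 and Ndufa4l2, the largest changes past the threshold in each H/R comparison, the smallest changes and the smallest p-values for B12, and up to 3 genes per other list. Other genes were named after their values were seen. Other settings were a replicate block, only the groups compared, an intensity trend, array weights, a filter on dim probe sets, quantile normalization, centring, 1 probe set per gene, a 2-fold rule and omitting arrays 1 at a time. The negative control median as a covariate was chosen after seeing the data. Plots used Python 3.11.15 and matplotlib 3.10.9.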

Additional observations from a re-analysis of the deposited data

Results flagged for a closer look

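In 5 of 184 gene and group combinations (2.72%) 1 array stood apart from the other 3 by Dixon's criterion for 4 values, where chance alone gives about 5%. Ndufb5 had 11.64 on control+B12 array 3, against 12.02 to 12.07 on the other control+B12 arrays. Ndufs3 had 13.44 on control+B12 array 3, against 13.20 to 13.22 on the others. Ndufaf4 had 11.89 on control+B12 array 3, against 12.07 to 12.08. Ndufa7 had 9.14 on control array 3, against 8.54 to 8.63 on the other control arrays. Ndufaf1 had 9.60 on control array 3, against 8.995 to 9.09. The interaction of H/R and B12 passed for 0 of 46 genes by limma, and 0 genes moved in opposite directions on all arrays with and without B12.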

How the results depend on the processing

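In H/R against control the count of lower Nduf genes was 27, and 21 to 29 with 1 array left out (21 without control 3 or without H/R 1). In H/R+B12 against control+B12 it was 25, and 22 to 25 with 1 array left out. With the replicate number as a block the counts were 27 and 25, and 0 genes rose. Deviations of same-numbered arrays correlated at -0.072 to 0.0786, with 0 of 24 pairs over 0.1. Of the 16 arrays 6 deviated most like arrays of their own number, and the numbers only name samples, and the block changed no call count by over 1.5 times.

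A rule of at least 2-fold change at an unadjusted p under 0.05, by construction stricter in size, left 10 and 5 lower Nduf genes. Over all probe sets that rule gave 581 higher and 575 lower without B12, 682 and 532 with B12, 11 and 9 for H/R+B12 against H/R, 10 and 9 for control+B12 against control, and 108 and 120 for the interaction. Leaving out single arrays moved the B12 comparisons over all probe sets from 0 to at most 1 call. It moved the median of the assembly factors with B12 between -0.33 (without control+B12 2) and -0.071 (without control+B12 4), the cause of which was not tested. In the other settings besides the 2-fold rule the lower Nduf genes numbered 22 to 33 without B12 and 22 to 28 with B12, no Nduf call changed direction, and 0 Nduf genes passed for B12 or the interaction. Each Nduf gene had 1 probe set, so a choice among probe sets left their signals as they are.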

Other observations

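The 46 genes lie on 17 chromosomes. Across them the change in H/R against control was set against the level in the control+B12 arrays, which do not enter that log2 change. The Pearson r was -0.286 and the Spearman rho -0.212. Both are descriptions over genes measured on shared arrays by probe sets of unequal response.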
